A study of Homo sapiens with 2 samples.

Results

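Antisense long noncoding RNAs (lncRNAs), the intergenic lncRNA LINC00504 and the protein-coding partners of the antisense RNAs were followed through a list of enriched RNA regions from a catenin immunoprecipitation (IP). The members were chosen by symbol from the peak list itself, so their presence and their values there are a description. They were 6 lncRNAs (LINC00504, UGDH-AS1, WAC-AS1, AFAP1-AS1, GABPB1-AS1 and FRMD6-AS1) and 3 sense genes (UGDH, WAC and AFAP1), 9 of the 1658 gene symbols with a peak. They accounted for 22 of the 6195 peaks, on 19 of the 4439 transcripts. The series held 2 samples of MDA-MB-231, an established triple-negative human breast cancer line, 1 library recovered with the catenin IP and 1 input, with no further treatment given in the labels. IP RNA had been sheared, to about 300 to 500 bp. The peak list belongs to the IP library, and the input was not analysed here on its own. With 1 library per group, no difference between genes could be tested against replicate error. How abundant an RNA was in the cells and how well it was recovered by the IP cannot be told apart from this list.

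Beta-catenin is the transcriptional effector of canonical Wnt signalling and a structural protein of adherens junctions, and screens by IP ask which RNAs come down with it. An antisense lncRNA is transcribed from the strand opposite a protein-coding gene. It may overlap its partner or run away from it from a divergent start site, and such RNAs are known to act on the transcription or the mRNA of the neighbouring gene in some cases. Where a sense and an antisense transcript cover the same bases, only a count that uses the strand can separate them. Neither the labels nor the file say whether strand was used in the counting of these tags.

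The layout of the pairs therefore bears on how the tags can be read. In RefSeq's annotation of GRCh38.p14, the spans of UGDH-AS1 and UGDH did not overlap, nor did those of WAC-AS1 and WAC. Both pairs ran head to head, with annotated starts 400 bases apart for UGDH and 425 bases apart for WAC. AFAP1-AS1 and GABPB1-AS1 each overlapped the span of the sense gene, and FRMD6-AS1 lay within the span of FRMD6. The peak list was made on a transcript annotation that may differ, since the submitters' processing notes name build hg18. The stretches below are those where the promoter windows of both genes of a divergent pair coincide. Each lies upstream of both starts and is the middle part of the DNA between them, shown as the sequence that both windows share. Both come from RefSeq (GRCh38.p14, plus strand, 5′ to 3′), and capitals mark CpG dinucleotides.
UGDH and UGDH-AS1, chr4:39527589-39527689: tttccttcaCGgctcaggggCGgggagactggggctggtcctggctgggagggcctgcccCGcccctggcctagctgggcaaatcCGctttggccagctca
WAC and WAC-AS1, chr10:28532529-28532604: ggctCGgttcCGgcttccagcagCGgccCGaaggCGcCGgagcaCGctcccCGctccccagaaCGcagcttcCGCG

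The shared stretch of the UGDH pair had 101 bases, a GC content of 69.3% and 4 CpG. That of the WAC pair had 76 bases, a GC content of 75% and 11 CpG. Windows of 300 bases, 250 before and 50 after the start, were held for 7 of the 9 members. Over all 35116 such windows the median was 14 CpG. The windows of UGDH-AS1 and WAC-AS1 held 28 and 37, and those of UGDH and WAC 15 and 39. The word CCGGAAG, a binding word of the ETS factor GABP, was searched on both strands and occurs in 10.3% of all windows. Among the members it was found in the WAC window, 2 times. The TCF/LEF word CTTTG followed by 2 letters that are each A or T, searched on both strands, occurs in 13.8% of all windows. It was found once in the GABPB1-AS1 window and once in 1 of the 2 AFAP1 windows. Such matches describe letters and are no measured binding.

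Each peak carried a count of tags, a fold given by the authors' peak caller, a score and a position along the transcript. The score has lost its column name, so its meaning was read from the values. Taken as minus 10 times the log10 of the Poisson probability of more tags than observed, it returned 1 and the same background, 7.68 tags per kb, in 4100 of the 6168 peaks that could be read (to within 0.5%). The folds of 4095 of these 4100 peaks were whole multiples of 0.5788 (to within 0.0055). Read as tags in a window of 225 nt at the summit, the folds of all 4100 gave whole counts (to within 0.1 of a tag). Among the 2068 other peaks, whose background by this reading differed from 7.68 tags per kb, 83.9% gave whole summit counts. Over the whole list 4439 folds lay on the step of 0.5788, so some of these other peaks shared it. In 24 of those 2068 the summit count exceeded the tags of the peak, so the reading does not hold everywhere. It gave whole summit counts in all 22 member peaks, the largest distance from a whole number being 0.0092. The file itself does not state how score and fold were made.

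LINC00504 had the densest peak of the 9 genes. Its single peak lay at nt 485 to 1037 of ENST00000505089, with the summit at nt 815, and held 43 tags over 553 nt. This was a density of 77.8 tags per kb (95% Poisson interval 56.3 to 105), against a median of 29.8 over all genes. The authors' fold of 23.15 ranked 70 of 1658. Over the whole peak, LINC00504 held 10.1 times the tags of the background read from its score, which ranked 8 of the 1644 genes that could be read. Genes with a peak scored 3000 or above were not read, so this rank leaves out the highest-scoring genes.

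The tags of LINC00504 were concentrated at the summit. Its fold corresponded to 40 tags in the summit window, so 93.0% of the peak's 43 tags lay there and 3 lay elsewhere. The window covered 40.7% of the peak's length. Among 200 other genes whose highest peak held a like number of tags (within 20% of 43), the median share at the summit was 47.8%, and 0 genes reached that of LINC00504. Those peaks were also longer, with a median of 1236 nt, and 0 were shorter than 553 nt. The count of 0 depends on the range, since NDUFA9 fell just outside it. That gene had 34 tags in a peak of 505 nt, with 97.1% of them at the summit. Of the 1658 genes, 175 had a shorter highest peak than LINC00504, and 1 of those held at least as many tags.

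**Figure D1:**
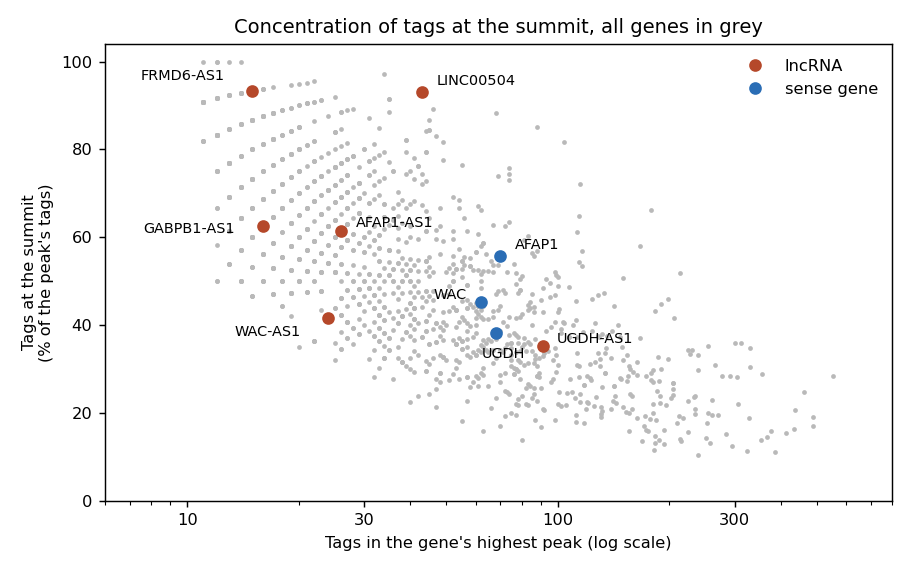
Share of a gene's highest peak that lay in the summit window (%, vertical axis) against the tags in that peak (log scale, horizontal axis). Grey points are all other genes with a summit count, red points the lncRNAs and blue points the sense genes. LINC00504 stands above all genes of like tag number at 93.0% of 43 tags, and UGDH-AS1 sits at 35.2% of 91 tags, among other genes.

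UGDH-AS1 carried the most tags of the 6 lncRNAs. Its peak at nt 825 to 2374 of ENST00000504032, with the summit at nt 1124, held 91 tags over 1550 nt, or 58.7 tags per kb (47.3 to 72.1). The fold of 18.52 corresponded to 32 tags at the summit, so that 59 of the 91 tags lay outside the summit window. A share of 35.2% at the summit was close to the median of 35.0% for 139 genes of like tag number. UGDH-AS1 thus had a broad peak where LINC00504 had a narrow one, at densities whose ratio of 1.32 had an exact interval of 0.899 to 1.92. Over the whole peak UGDH-AS1 held 7.65 times the background, rank 33 of 1644, again without the highest-scoring genes.

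UGDH encodes the dehydrogenase that turns UDP-glucose into UDP-glucuronic acid, the precursor of hyaluronan and other glycosaminoglycans. Its transcript with the most tags, ENST00000316423, had 68 tags at nt 59 to 1607, with the summit at nt 574. That made 43.9 tags per kb (34.1 to 55.7). The fold was 14.28, and 26 tags fell in the summit window. The antisense RNA thus had 1.34 times the density of the sense gene, with an exact interval of 0.966 to 1.86 for counting error, which holds 1. Of the 3 pairs with a peak on both sides, this was the 1 in which the antisense RNA was the denser. The peaks of the pair were of nearly the same length, 1550 and 1549 nt.

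The 3 listed transcripts of UGDH did not carry the same peak. ENST00000506179 had 65 tags over 1322 nt, 49.2 tags per kb, and its summit and its end both lay 162 nt nearer the start than in ENST00000316423. Both transcripts had 26 tags at the summit. ENST00000501493 had 18 tags over 792 nt, 22.7 tags per kb, and a fold of 5.21. The antisense RNA was denser than each of the 3, by a ratio of 1.19 to 2.58, and the interval left out 1 for ENST00000501493 alone (1.55 to 4.55).

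WAC encodes an adaptor that brings the ubiquitin ligase of histone H2B to RNA polymerase II. It was listed on 5 transcripts with 8 peaks, the most of the 9 genes. On ENST00000354911 the first peak covered nt 180 to 1545 (62 tags, fold 12.34) and the second nt 1719 to 2593 (43 tags, fold 8.79). Together they held 105 tags over 2241 nt, 46.9 tags per kb (38.3 to 56.7). The second peak was the more concentrated, with 32 of its 43 tags at the summit against 28 of 62 in the first.

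WAC-AS1 lay well below WAC. It had 24 tags over 1127 nt, 21.3 tags per kb (13.6 to 31.7), a fold of 5.79 and 10 tags at the summit. The ratio of antisense to sense density was 0.455 (0.279 to 0.713). It ranged from 0.417 to 0.472 over the 5 transcripts of WAC, and all 5 intervals left out 1. These intervals are not independent, since all use the same WAC-AS1 tags and some WAC transcripts share a peak. The 2 genes differed in background too. That of WAC-AS1 was at 7.68 tags per kb, while those of the 2 WAC peaks were 1.31 and 2.11 times as high. Set over the backgrounds read from their scores, WAC-AS1 stood at 2.77 and WAC, on ENST00000354911, at 3.76, a ratio of 0.738. For WAC-AS1 that background is the value common to most peaks of the list and is not particular to it. The pair lay closer by this measure than by density, but by how much depended on the WAC transcript. The single peaks of ENST00000628285 and ENST00000375646 stood at 6.23 and 4.82 times their backgrounds.

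WAC-AS1 was listed on 2 transcripts, ENST00000527986 and ENST00000528337, with the same peak of 24 tags at positions 318 nt apart. For WAC, the second peak recurred with the same 875 nt and 43 tags on 3 transcripts. The first peak took different lengths, from 795 nt with 37 tags on ENST00000375646 to 1366 nt with 62 tags on ENST00000354911. The highest fold of the gene, 15.18, was on ENST00000628285, with 59 tags over 1156 nt.

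AFAP1 encodes an adaptor that cross-links actin filaments and binds the kinase SRC. On ENST00000358461 its peak at nt 807 to 2430, with the summit at nt 1979, held 70 tags, 43.1 tags per kb (33.6 to 54.5). The fold of 19.87 was the highest of the 3 sense genes, each by its transcript with the most tags. Of the 70 tags, 39 lay at the summit. That share of 55.7% compared with a median of 38.3% for 184 genes of like tag number, of which 21 reached it.

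AFAP1-AS1, an lncRNA studied in several cancers, had its peak farther along its transcript than any other member, at nt 3025 to 4002 of ENST00000608442. It held 26 tags, 26.6 tags per kb (17.4 to 39.0), with a fold of 9.26 and 16 tags at the summit. The density ratio to AFAP1 was 0.617 (0.377 to 0.98). It depended on the transcript that stood for AFAP1, being 0.804 (0.488 to 1.29) with ENST00000420658 and 1.33 (0.707 to 2.54) with ENST00000382543. At the summit the antisense RNA had 0.41 times the 39 tags of ENST00000358461 (0.214 to 0.751). This too depended on the transcript, as ENST00000420658 had 35 summit tags and ENST00000382543 had 10, fewer than the antisense RNA. Since the spans of this pair overlap, tags of either strand could have been counted for both, and this was not tested.

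The 4 listed transcripts of AFAP1 fell into 3 different peaks. ENST00000360265 had the same 70 tags as ENST00000358461, shifted by 38 nt. On ENST00000420658 the peak began at the same nt 807 and was 252 nt longer, with the summit 255 nt farther on, yet it held 62 tags, 8 fewer. The highest fold of the gene, 20.26, was on this transcript. ENST00000382543 carried 19 tags at nt 538 to 1486, with a fold of 5.79. The region labels of these transcripts differed, coding for the last and 3′ untranslated for the other 3, and labels were not used further.

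**Figure D2:**
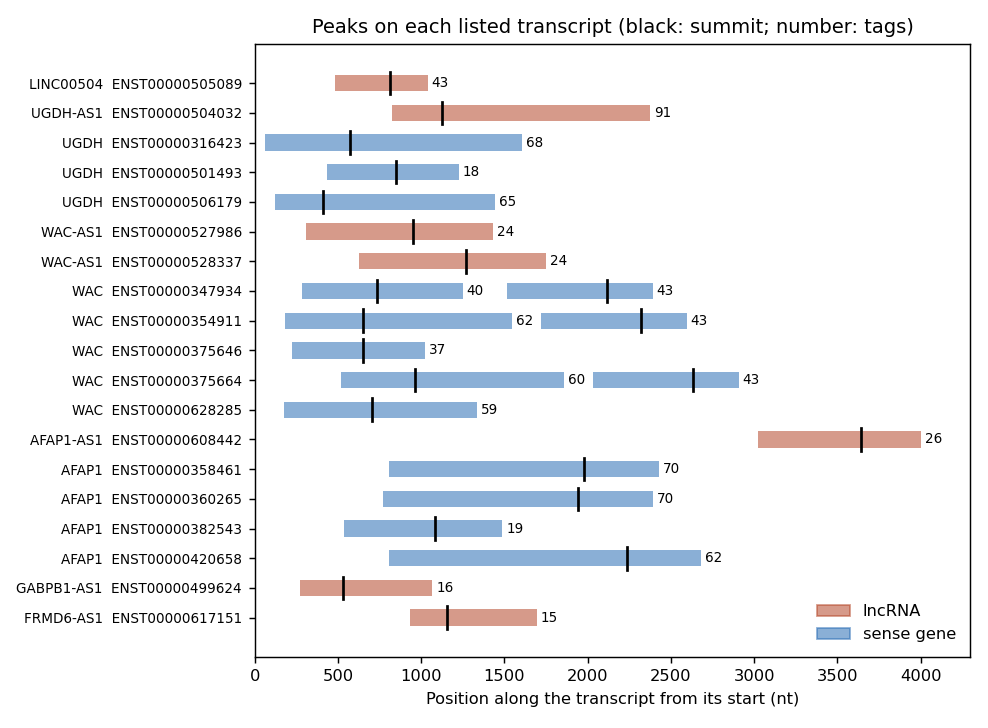
Peaks of the 9 genes on each of the 19 listed transcripts, drawn along the transcript from its start (nt). Red bars are lncRNA peaks, blue bars peaks of sense genes, black lines summits, and numbers the tags of each peak. The lncRNAs have 1 peak each, WAC has 2 on 3 of its 5 transcripts, and the AFAP1-AS1 peak lies farthest from a start.

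GABPB1-AS1 and FRMD6-AS1 were listed without their sense genes. GABPB1, the beta subunit of the ETS factor GABP, and FRMD6, a FERM-domain protein upstream of the Hippo pathway, had no listed peak, which says only that none passed the authors' threshold. Both antisense RNAs overlap the span of the sense gene, so tags of the sense strand could have been counted for them. This was not tested. GABPB1-AS1 had 16 tags at nt 272 to 1065 of ENST00000499624, 20.2 tags per kb (11.5 to 32.7), with a fold of 5.79. FRMD6-AS1 had 15 tags at nt 932 to 1692 of ENST00000617151, 19.7 tags per kb (11.0 to 32.5). These were the sparsest members, near the list's minimum of 11 tags. Their scores of 36.78 and 34.15 were near the lowest score in the list, 30.

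At the summit these 2 differed. Of the tags of FRMD6-AS1, 14 of 15 lay in the summit window, where GABPB1-AS1 had 10 of 16. The fold of FRMD6-AS1 was accordingly higher, at 8.10, although its density was the lower. A share of at least 90% at the summit was found in 2 of the 9 genes, LINC00504 and FRMD6-AS1, against 4.82% of the 1536 genes with a summit count. For FRMD6-AS1 it rests on 15 tags, and 11 of 361 genes of like tag number reached the same share.

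In order of density, LINC00504 and UGDH-AS1 were followed by WAC, UGDH and AFAP1, and then by AFAP1-AS1, WAC-AS1, GABPB1-AS1 and FRMD6-AS1. Between neighbours in this order, the interval of the ratio left out 1 only between AFAP1 and AFAP1-AS1 (ratio 1.62, 1.02 to 2.65). The 6 lncRNAs thus lay on both sides of the sense genes. Each of the first 2 had at least 2.21 times the density of each of the other 4, and all 8 of those intervals left out 1. Among the 4 sparse antisense RNAs all 6 intervals held 1. These intervals cover counting error only, since tags may include PCR copies of 1 molecule.

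**Figure D3:**
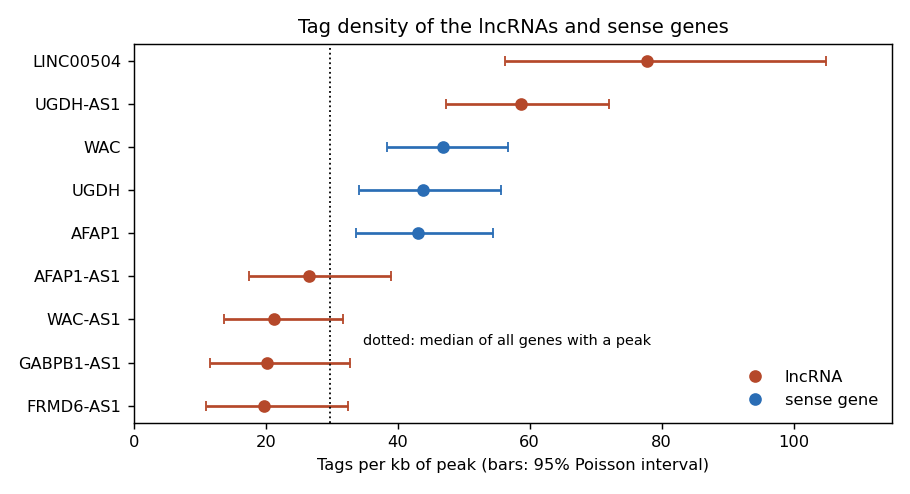
Tags per kb of peak for the 9 genes, with 95% Poisson intervals for counting error (red, lncRNAs; blue, sense genes). The dotted line is the median of all genes with a peak, 29.8. LINC00504 and UGDH-AS1 lie above the sense genes and the other 4 antisense RNAs below them.

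Set beside all genes with a peak, the members were mixed. A density of at least 50 tags per kb was reached by 2 of the 9, LINC00504 and UGDH-AS1, against 15.4% of all genes. A fold of at least 10 was reached by 5 of the 9, all 3 sense genes and 2 of the 6 lncRNAs, against 30.3%. The 6 lncRNAs had a median density of 23.9 tags per kb and a median peak length of 886 nt, where all genes had 29.8 and 1294. The 3 sense genes had medians of 43.9 tags per kb and 1624 nt. At least 2 transcripts were listed for 4 of the 9, the sense genes and WAC-AS1, against 64.2%.

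**Figure D4:**
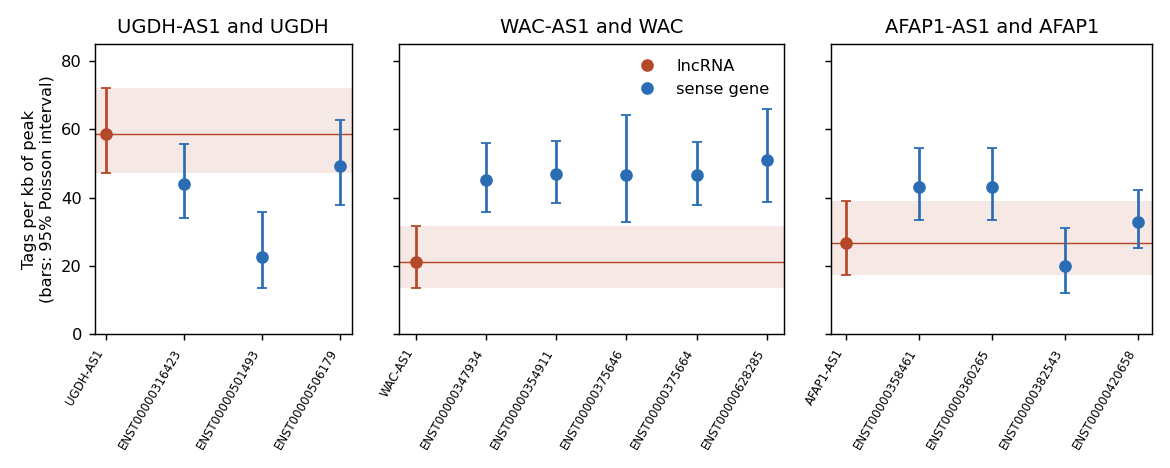
Tags per kb of peak for the antisense RNA (red, with its interval shaded) and for each listed transcript of the sense gene (blue) in the 3 pairs. Bars are 95% Poisson intervals. All 5 WAC transcripts lie above WAC-AS1, all 3 UGDH transcripts below UGDH-AS1, and the AFAP1 transcripts on both sides of AFAP1-AS1.

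In all 6 lncRNAs the background read from the score was the common 7.68 tags per kb. With the transcript that had the most tags standing for each gene, 0 of the 3 sense genes had every peak there. Over all genes read, 53.9% had every peak at this value. The background stood at 1.05 times the common value for UGDH, 1.14 for AFAP1 and 1.62 for WAC. Over all their transcripts, 4 of the 15 peaks of sense genes were at the common value: those of ENST00000501493 and ENST00000506179, 2 of the 3 UGDH transcripts, and of ENST00000382543 and ENST00000420658, 2 of the 4 AFAP1 transcripts. The difference from the lncRNAs thus depended on the transcript for UGDH and AFAP1. For the 6 lncRNAs, fold is thus summit height divided by a constant, and holds no background of their own.

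**Figure D5:**
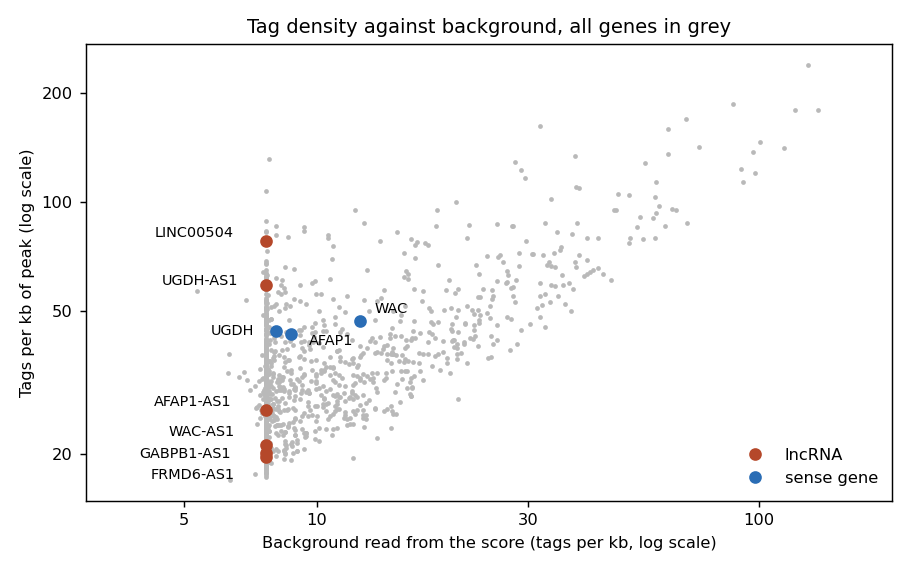
Tags per kb of peak against the background read from the score (tags per kb, both axes on a log scale). Grey points are all other genes that could be read, red points the lncRNAs and blue points the sense genes. The 6 lncRNAs stand on the common value of 7.68, while UGDH, AFAP1 and WAC, each by the transcript with the most tags, lie to its right.

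By chromosome in RefSeq's table, LINC00504 and both genes of the UGDH and AFAP1 pairs are on chromosome 4. That is 5 of the 9 members, where 3.89% of the 1592 listed genes found in the table are on it. A pair shares its locus, so these 5 genes represent 3 places.

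Genes that work with the sense partners were also looked up. A peak was listed for 7.89% of the 20052 protein-coding symbols in the reference table, and 30.3% of all genes with a peak reached a fold of 10. The lists below include the sense genes themselves and were chosen with results known, so nothing particular to them is read from their counts. Of 21 genes of UDP-sugar and glycosaminoglycan synthesis 4 had a peak, and 2 of the 4 reached a fold of 10. UGGT1, a folding sensor that uses UDP-glucose, had a fold of 16.79 and 34.1 tags per kb. The chondroitin sulfate enzymes CSGALNACT2 and CHSY1 had folds of 7.31 and 5.79. UGDH was the densest of the 4.

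Of 13 genes around AFAP1 and SRC-linked actin 6 had a peak, and 2 of the 6, AFAP1 and the SRC-family kinase YES1 (fold 13.31, 33.9 tags per kb), reached a fold of 10. CTTN, the actin-binding protein cortactin, had the highest density at 85.4 tags per kb with a fold of 6.41. PRKCA, PTK2 and FYN had folds of 8.10, 4.65 and 4.19. SRC itself and the paralogs AFAP1L1 and AFAP1L2 were not listed.

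Of 13 genes of H2B ubiquitylation and WAC partners 5 had a peak, and 3 of the 5 reached a fold of 10. RTF1 and CTR9, of the elongation complex PAF1, had folds of 13.89 and 11.00, and the ubiquitin ligase gene RNF20, which acts with WAC, had 9.59 with 30.9 tags per kb. CDC73, of the same complex, had 5.33. For the partners of the absent sense genes, 8 of 13 Hippo pathway genes had a peak. Of these 8, 3 reached a fold of 10: TEAD1 (fold 19.68, 42.5 tags per kb), NF2 and STK4 (both 11.00). In the list around GABP, 2 of 7 had one, ETS1 (9.84) and ELK4 (5.79), and 0 of the 2 reached a fold of 10. The median folds of the lists ran from 7.26 to 11.0, where the median of all genes was 7.55.

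As a check on the cell line, FN1 and EGFR were the 2 of 9 mesenchymal and basal markers with a peak, and 0 of 8 luminal and 0 of 6 immune and blood markers had one. With most markers of the line's own type unlisted, this does not check the label.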

How the data were processed

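The deposited peak list of the catenin IP library was used. Per the file headers, each peak has a tag count, a fold (the ratio given by the authors' peak caller), a score whose column name is lost, and start, end, length and summit in nt. Build hg18 is named per the submitters' processing notes; for aligner, peak caller, annotation and background library the sources used here give none. Library depth is unknown.

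Members and lists were chosen with earlier results of these data known: the 9 members, their absent sense genes, and lists of genes that act with the sense partners. The transcript with the most tags stood for a gene, and tags were divided by summed peak length. The background was solved from score, tags and length, leaving out scores of 3000 and above. Intervals are exact (Poisson; conditional binomial for ratios) at 95%. The design planned no test. On 6134 simulated peaks, whose scores and folds were made by the same assumed formulas, the reading recovered 100.0% of summit counts. This checks the arithmetic and cannot show that the deposited values were made that way. Python 3.11.15, scipy 1.17.1 and pandas 2.3.3 were used.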

Additional observations from a re-analysis of the deposited data

How the results depend on the processing

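No paired analysis was possible because the IP and the input are single libraries, and no replicate could be left out. All 9 members kept a peak at a fold of at least 4 and with the transcript chosen by fold or by number of peaks. A score of at least 50 left 7, without GABPB1-AS1 and FRMD6-AS1, and a score of at least 100 left 5, without AFAP1-AS1 and WAC-AS1 too. Each transcript counted on its own gave 19. In the listed alternatives the density ratios ran from 1.19 to 1.34 for UGDH-AS1 over UGDH, from 0.417 to 0.49 for WAC-AS1 over WAC and from 0.617 to 0.804 for AFAP1-AS1 over AFAP1. Taking each sense transcript in turn was chosen after seeing the data. It moved the first to 2.58 with ENST00000501493 and turned the last to 1.33 with ENST00000382543. The sparse tags of those transcripts are given above; the cause was not tested. Of 174 single values under alternatives, 167 stayed within the counting interval or the summit window and 7, of AFAP1 and WAC, moved further. The lncRNAs each had a single peak, the same on every listed transcript, so their values could not move under these alternatives. The count of 167 is therefore no measure of stability for them.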

Other observations

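Among all 19 symbols labelled as lncRNA, LINC00504 and UGDH-AS1 ranked 1 and 2 both by density and by fold. RP11-346D14.1 came next by density with 46.4 tags per kb, a fold of 12.73 and a broad peak with 26.5% of its tags at the summit. The 13 symbols other than the members had densities from 20.7 to 46.4 tags per kb, and 11 of them had every peak at the common background. RP11-166O4.6 was the 1 of these with at least 90% of its tags at the summit (90.5% of 21 tags).

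Of the genes with a like number of tags to LINC00504, those nearest to it in share at the summit were protein-coding. SMG1, a kinase of nonsense-mediated decay, and NONO, a paraspeckle protein, each had 32 of 35 tags there (91.4%), at folds of 18.52 and 8.64, in peaks of 999 and 798 nt. LONP1, a mitochondrial protease, had 41 of 46.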
